A study of Mus musculus with 8 samples.

Results

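The genes described here encode the enzymes of sterol and fatty acid synthesis with a few of their regulators: 18 genes of the sterol branch, 9 of the fatty acid branch and 4 regulators and transport genes. They were taken by symbol from the annotation of the array, as every probe set assigned to 1 of 33 listed symbols. Acat2 and Sc4mol had no probe set under those names (Sc4mol is an older symbol of Msmo1, which was measured), which left 31 genes with 71 probe sets. All 31 were among the 12223 genes tested. All 31 also lay above the filter on dim probe sets, a signal of 51.0, in the mean of each of the 4 groups, so the filter removed no member and none passed it through 1 group alone.

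RNA from mouse cells was hybridised to Affymetrix expression arrays, 8 arrays in 4 groups of 2, with a linear signal intensity per probe set. The cells carried a reporter in which green fluorescent protein (GFP) marks Aid, the gene for the enzyme that B cells use for class switching and somatic hypermutation of their antibody genes. Cells from bone marrow with the leukaemia oncogene BCR-ABL1 formed a GFP-negative and a GFP-positive group. Splenic B cells stimulated with LPS and IL4, signals that drive B cells into division and class switching, formed the other two groups, again GFP-negative and GFP-positive. All 4 groups thus share the reporter. The labels do not say how BCR-ABL1 was introduced, how long cells were cultured, how old the mice were, or whether the 2 arrays of a group stand for separate animals, so the p-values measure only the spread between these arrays, which may be technical. With 2 arrays against 2 an exact permutation test cannot go below p = 0.333, and the tests below are limma's moderated tests over all genes.

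Cells make cholesterol from acetyl-CoA through mevalonate, isoprenoid diphosphates, squalene and lanosterol, and they make fatty acids from the same acetyl-CoA through malonyl-CoA. The transcription factors encoded by Srebf1 and Srebf2 (the SREBPs) switch on both pathways: when membrane sterol is low they leave the endoplasmic reticulum, are cut in the Golgi and enter the nucleus, and Insig proteins hold them back when sterol is plentiful. Lymphocytes that enter division are known to raise this programme to build new membrane.

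The labelled cell types were compared with marker genes. Summed signals of 7 B cell markers were similar in size in all groups. They were 42574 to 42976 in the BCR-ABL1 GFP-negative and 42491 to 42923 in the BCR-ABL1 GFP-positive arrays. In the spleen arrays they were 39381 to 39718 in the GFP-negative and 32819 to 34137 in the GFP-positive group. The sums hide single markers that differed in both directions. Log2 changes of BCR-ABL1 over spleen cells ran from -4.82 for Cd22 to 3.37 for Vpreb3 between the GFP-positive groups. Between the GFP-negative groups they ran from -2.71 to 2.89 for the same genes. The 4 pre-B cell markers summed to 25846 or more in every BCR-ABL1 array against 2498 or less in every spleen array. Igll1 alone was higher in the spleen arrays of each GFP fraction. The spleen GFP-negative arrays stood apart. The 12 myeloid markers summed to 80100 to 82140 there, against 578 to 581 in the spleen GFP-positive and 857 to 1109 in the BCR-ABL1 arrays, and 9 T and NK cell markers summed to 19118 to 20653 against 671 to 691 in the spleen GFP-positive arrays and 4721 to 5815 in the BCR-ABL1 arrays, where Il7r, a receptor that pre-B cells also carry, made up 3728.6 or more. In the spleen GFP-positive arrays the myeloid genes Camp, Ngp, Csf1r, Itgam and Elane and the T cell gene Cd3g were at the floor of 32 that was set on low signals. Itgam was near that floor in the spleen GFP-negative arrays too, at 47.3 and 34. The same spleen GFP-negative arrays had 7 genes of dividing cells at a summed 6475 to 6491, against 32898 to 34138 in the other 6 arrays, and a 3′ to 5′ signal ratio of Gapdh of 1.88 and 1.93 against 1.40 to 1.48. Erythroid and megakaryocyte markers summed to 261 or less in every array.

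GFP-positive spleen cells had far more signal for both branches than GFP-negative spleen cells. Of the 18 sterol genes, 16 were higher in the GFP-positive arrays at an adjusted p under 0.05, none was lower and 2, Ggps1 and Lbr, did not pass. Of the 9 fatty acid genes, 6 were higher and 3 (Acly, Scd1 and Elovl5) did not pass, and of the 4 regulators and transport genes Stard4 and Srebf1 were higher. These counts stand against a wide background, since 45.7% of all genes tested were higher and 31.4% lower in this comparison. The median change was 1.35 on the log2 scale over the sterol branch and 1.41 over the fatty acid branch, against 0.18 over all genes tested. Without normalization between arrays the all-gene median was 0.39 and with each array shifted to 1 median it was 0.55, and the sterol medians were then 1.67 and 1.83 and the fatty acid medians 1.89 and 2.05. All 24 member calls kept their direction and passed on each of these scales, while the share of higher genes among all calls went from 59.2% to 69.0% and 75.1%.

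The spleen groups also differed in the marker lists. All 10 myeloid and all 9 T and NK cell markers tested were lower in the GFP-positive arrays, with median log2 changes of -7.28 and -6.11. Camp, Ngp, Csf1r and Cd3g were at the floor of 32 in every array outside the spleen GFP-negative group. They passed the filter through that group alone, so their direction was fixed in advance. Itgam and Elane were filtered out as dim. All 7 genes of dividing cells were higher, with a median of 3.56. The part of these marker differences in the changes of the lipid genes was not tested. In bulk RNA, fewer cells of a type and less RNA per cell cannot be told apart.

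**Figure D1:**
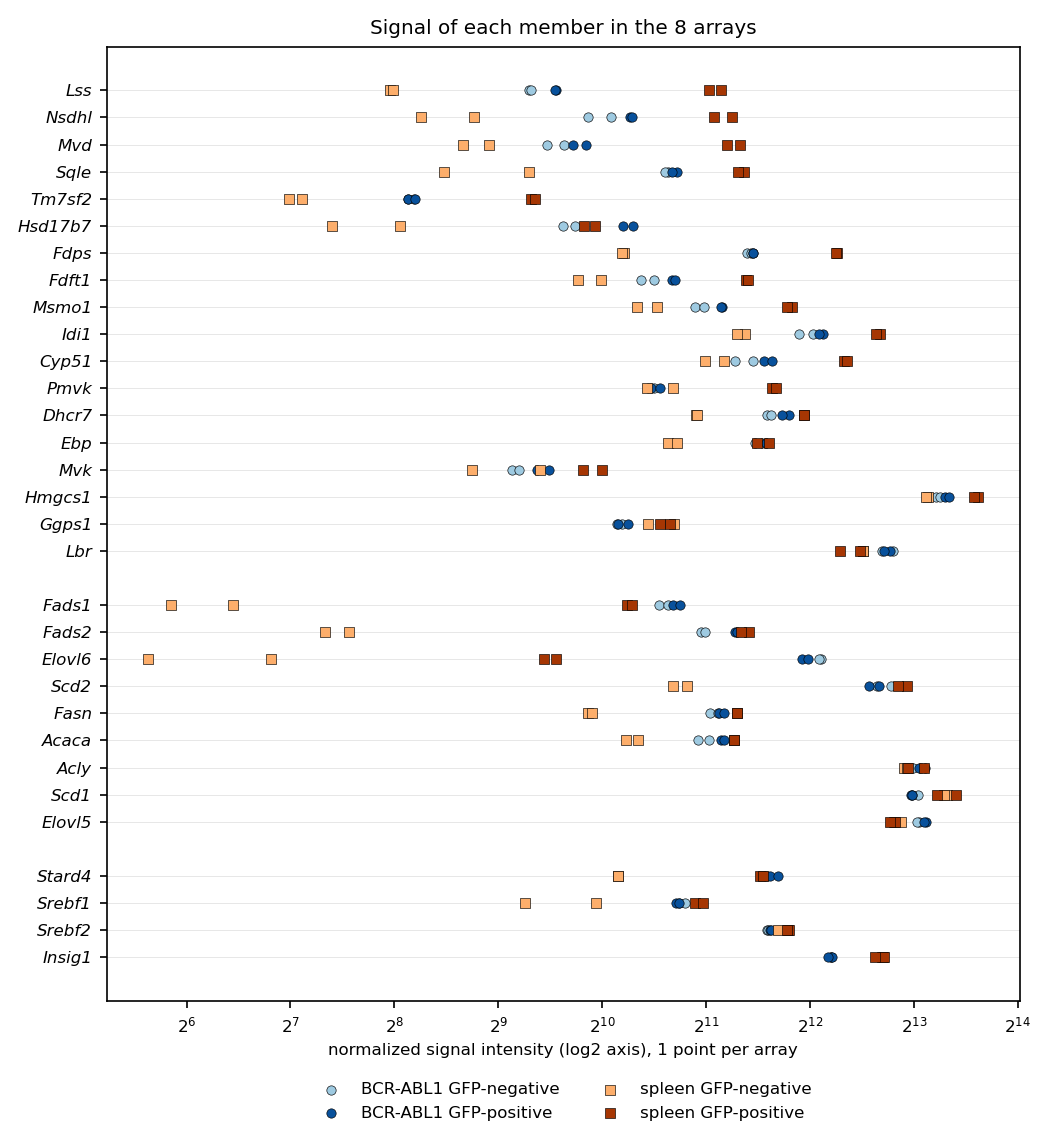
Normalized signal intensity (log2 axis) of the 31 genes, 1 point per array, circles for BCR-ABL1 and squares for spleen arrays, light for GFP-negative and dark for GFP-positive, with sterol genes at the top, fatty acid genes in the middle and regulators at the bottom. The spleen GFP-negative arrays are lowest in the mean for 15 of the 18 sterol genes and the spleen GFP-positive arrays highest for 15 of 18, and positions should be compared within a gene, not between genes.

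The promoters of the genes with the largest spleen changes are shown because SREBPs act together with the factors NF-Y and Sp1 at promoters of this pathway. The sequences are RefSeq's, on build GRCm38.p6, and cover the 250 bases before the annotated start, written 5′ to 3′ along the gene. They belong to the 3 sterol and the 2 fatty acid genes with the largest change among those that passed and had a promoter in the table. Capitals mark CCAAT, the NF-Y box, and GGGCGG, the Sp1 box, on either strand, so ATTGG and CCGCCC are the same boxes read from the opposite strand.
Lss, chr10:76531355-76531604, plus strand: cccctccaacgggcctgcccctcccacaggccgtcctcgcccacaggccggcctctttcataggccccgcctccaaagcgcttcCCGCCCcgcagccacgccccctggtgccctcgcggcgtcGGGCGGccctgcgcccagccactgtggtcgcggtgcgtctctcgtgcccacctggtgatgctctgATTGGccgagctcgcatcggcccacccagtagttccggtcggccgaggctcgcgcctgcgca
Nsdhl, chrX:72918271-72918520, plus strand: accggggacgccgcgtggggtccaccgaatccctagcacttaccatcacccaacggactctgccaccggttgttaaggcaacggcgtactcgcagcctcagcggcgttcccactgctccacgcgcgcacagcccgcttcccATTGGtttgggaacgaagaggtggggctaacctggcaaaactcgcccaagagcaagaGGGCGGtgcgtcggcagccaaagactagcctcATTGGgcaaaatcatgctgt
Mvd, chr8:122443423-122443672, minus strand: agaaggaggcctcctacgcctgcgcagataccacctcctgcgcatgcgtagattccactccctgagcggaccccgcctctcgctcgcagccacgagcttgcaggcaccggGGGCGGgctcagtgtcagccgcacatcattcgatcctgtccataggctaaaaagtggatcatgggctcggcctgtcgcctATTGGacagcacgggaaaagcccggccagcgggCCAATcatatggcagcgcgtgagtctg
Fads2, chr19:10101504-10101753, minus strand: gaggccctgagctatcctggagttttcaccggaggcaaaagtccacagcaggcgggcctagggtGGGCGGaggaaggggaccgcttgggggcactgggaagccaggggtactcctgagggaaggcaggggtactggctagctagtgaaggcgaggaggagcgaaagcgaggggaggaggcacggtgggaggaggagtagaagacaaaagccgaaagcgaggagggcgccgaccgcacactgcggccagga
Elovl6, chr3:129532136-129532385, plus strand: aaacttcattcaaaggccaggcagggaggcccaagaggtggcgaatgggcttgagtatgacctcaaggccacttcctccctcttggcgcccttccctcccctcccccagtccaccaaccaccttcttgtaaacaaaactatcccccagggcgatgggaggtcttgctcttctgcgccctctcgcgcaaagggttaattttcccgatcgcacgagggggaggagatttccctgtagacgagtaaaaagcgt
The NF-Y box lies 62 bases before the start in Lss, at 109 and 20 in Nsdhl and at 60 and 27 in Mvd, counted from the first base of the match. The Sp1 box lies at 166 and 127 in Lss, 52 in Nsdhl, 140 in Mvd and 186 in Fads2. Fads2 has no NF-Y box in this window and Elovl6 has neither box.

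Over the 24 of 31 genes with a promoter in the table, the branches differed in these letters. The NF-Y box was found in 15 of 15 sterol genes and 3 of 3 regulators (Insig1, Srebf1 and Srebf2), but in 2 of 6 fatty acid genes, Elovl5 and Fasn, against 40.2% of the 9882 tested genes with a promoter and 37.5% of all 27025 genes in the table. The Sp1 box was found in 13 of 15 sterol genes (86.7%), 3 of 3 regulators and 2 of 6 fatty acid genes, Acly and Fads2, against 61.7% of the tested genes and 35.4% of all genes. TCACNCCAC, a form of the sterol regulatory element to which SREBPs bind, was found in Hmgcs1 alone, 137 bases before the start, against 1.18% of the tested genes, and the E-box TCACNTGA was found in no member against 4.08%. Both strands were searched, none of the 4 motifs contains another, and a gene with several listed promoters (Dhcr7 and Srebf1 with 3, Pmvk with 2) counted if any of them matched. Ggps1 and Lbr, which did not pass the test in spleen cells, carry the NF-Y box as well. A match is a match of letters and not a measured binding site, and a window without one says nothing about the factor.

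**Figure D2:**
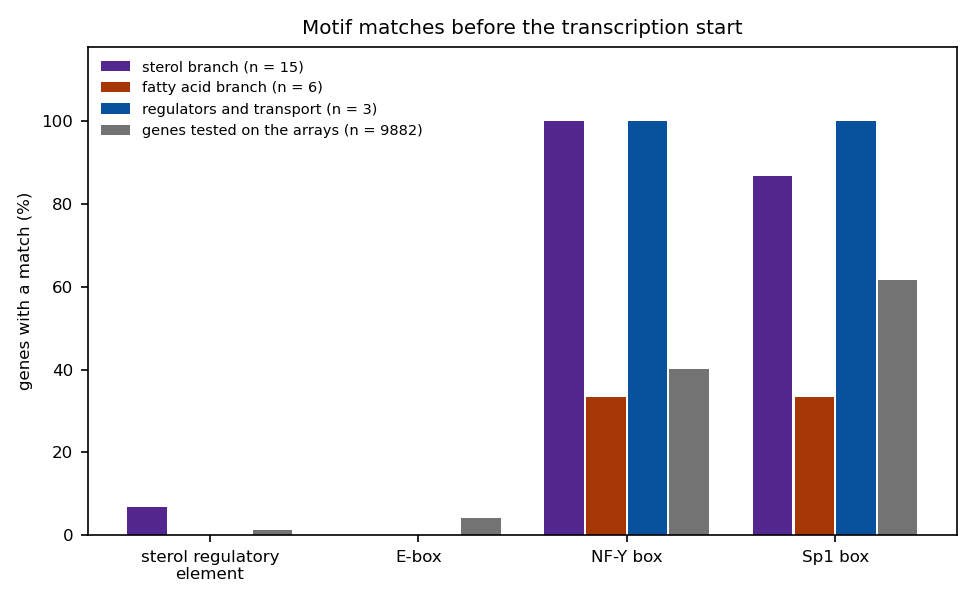
Percent of genes with a match to each of 4 motifs in the 250 bases before the transcription start, for 15 sterol, 6 fatty acid and 3 regulator genes and for the 9882 tested genes with a promoter. The NF-Y box is in 100% of the sterol genes, 33.3% of the fatty acid genes and 40.2% of the tested genes, and bars at 0 mark motifs with no match.

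Along the mevalonate steps of the sterol branch the spleen changes varied in size. Hmgcs1, which makes HMG-CoA, had 8973.4 and 8866.8 in the GFP-negative and 12580.4 and 12208.3 in the GFP-positive spleen arrays, a log2 change of 0.47 ± 0.031 (standard error, limma adjusted p = 1.98e-06). That is the smallest change among the 16 sterol genes that passed. Mvk, mevalonate kinase, had 430.8 and 676.9 against 903.5 and 1025.4, and its change of 0.83 ± 0.19 carried a wide error because the GFP-negative arrays lay far apart (adjusted p = 0.00364). Pmvk, the kinase of the next step, went from 1378.5 and 1641.9 to 3182.7 and 3271.2 (1.10 ± 0.088, adjusted p = 6.19e-06). Mvd, which decarboxylates mevalonate diphosphate to isopentenyl diphosphate, went from 403.7 and 481.4 to 2351.4 and 2559.9, a 5.56-fold rise (2.48 ± 0.11, adjusted p = 2.45e-07). In all 4 genes both GFP-positive arrays lay above both GFP-negative arrays. The share of all genes with this order was not counted in spleen cells, where 45.7% of all genes tested were higher by the test.

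The isoprenoid steps that lead to sterols rose. Idi1, the isomerase of isopentenyl diphosphate, had 2646.9 and 2522.4 in the GFP-negative and 6548.6 and 6347.9 in the GFP-positive spleen arrays (1.32 ± 0.056, limma adjusted p = 1.66e-07). Fdps, which makes farnesyl diphosphate, had 1181.6 and 1172.7 against 4909.3 and 4866.2, with replicates almost on top of each other (2.05 ± 0.048, adjusted p = 1.08e-08). Ggps1 makes geranylgeranyl diphosphate from that product, for protein prenylation and not for sterols. Its signal was 1652.2 and 1388.6 against 1501.8 and 1606.1, so the groups overlapped (0.04 ± 0.095, adjusted p = 0.743). That value depended on the scale, and Ggps1 passed as higher without normalization between arrays (0.45, adjusted p = 0.00883) and with arrays shifted to 1 median (0.60, 0.00181). Fdft1, squalene synthase, which commits farnesyl diphosphate to sterols, went from 1012.8 and 871.1 to 2670.4 and 2716.0 (1.52 ± 0.086, adjusted p = 8.36e-07).

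The steps that close and trim the sterol ring held the largest change of the branch. Sqle, squalene epoxidase, went from 628.7 and 356.0 to 2643.1 and 2533.0 (2.45 ± 0.22, limma adjusted p = 1.10e-05). Lss, lanosterol synthase, had 249.5 and 253.2 in the GFP-negative and 2091.2 and 2261.8 in the GFP-positive spleen arrays. That was an 8.65-fold rise, the largest in the sterol branch by the brightest probe sets (3.11 ± 0.085, adjusted p = 1.91e-08). A dimmer probe set of Mvd changed by 3.49, and the other probe sets of Lss by 3.96 and 1.91. Of the enzymes that remove methyl groups from lanosterol, Nsdhl went from 435.7 and 305.7 to 2440.5 and 2160.0 (2.65 ± 0.16), Hsd17b7 from 265.8 and 168.9 to 908.0 and 973.4 (2.15 ± 0.19), Msmo1 from 1294.7 and 1481.1 to 3644.9 and 3525.6 (1.37 ± 0.074) and Cyp51 from 2034.7 and 2313.5 to 5149.4 and 5239.8 (1.26 ± 0.079). The adjusted p of these 4 was 1.07e-05 or lower. Ebp, a sterol isomerase, changed by 0.87 ± 0.062 (limma adjusted p = 3.16e-06). Dhcr7, which reduces the last double bond to cholesterol, changed by 1.03 ± 0.048 (2.81e-07). Msmo1 alone lost its call under another setting: with the mean of its probe sets its adjusted p was 0.320.

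Tm7sf2 and Lbr encode sterol reductases of the same step, and they parted. Tm7sf2 had 126.5 and 138.1 in the GFP-negative and 635.6 and 653.8 in the GFP-positive spleen arrays (2.29 ± 0.11, limma adjusted p = 3.43e-07). Lbr, which is also a protein of the inner nuclear membrane that binds lamin B, had 5823.6 and 5847.7 against 5730.3 and 4988.9 (-0.13 ± 0.066, adjusted p = 0.111). The difference between the changes of these genes was not itself tested.

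In the fatty acid branch the desaturases of polyunsaturated fatty acids had the largest changes by the brightest probe set. With the mean of probe sets Scd2 (3.63) stood level with Fads2 (3.61) and above Fads1 (2.87). Fads1 had 87.4 and 57.7 in the GFP-negative and 1210.7 and 1252.7 in the GFP-positive spleen arrays, a 17.3-fold rise (4.12 ± 0.17, limma adjusted p = 1.57e-07). Fads2 had 161.1 and 188.7 against 2730.5 and 2582.4, a 15.2-fold rise (3.93 ± 0.089, adjusted p = 9.36e-09). Elovl5, the elongase that works between these desaturases on polyunsaturated chains, did not pass, with 7191.9 and 7531.7 against 7235.7 and 7003.1 (-0.05 ± 0.036, adjusted p = 0.247).

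Of the 6 genes of the synthesis, elongation and desaturation of saturated chains, Acaca, Fasn, Elovl6 and Scd2 rose, and Acly and Scd1 did not pass. Acly, which cuts citrate to cytosolic acetyl-CoA, had 7687.6 and 7826.5 against 8759.5 and 7853.5 (0.10 ± 0.054, limma adjusted p = 0.133), and passed without the second GFP-positive spleen array (0.18, 0.0136). Acaca, acetyl-CoA carboxylase, went from 1198.3 and 1298.1 to 2466.5 and 2462.7 (0.98 ± 0.066, adjusted p = 2.19e-06). Fasn, fatty acid synthase, went from 934.1 and 957.2 to 2519.5 and 2520.1 (1.41 ± 0.060, adjusted p = 1.66e-07). Elovl6, which extends palmitate to stearate, went from 112.4 and 49.6 to 751.9 and 692.6, with the 2 GFP-negative arrays 1.18 apart on the log2 scale, the widest gap between replicates of any member in any group (3.27 ± 0.30, adjusted p = 1.59e-05). Scd2, a desaturase that makes monounsaturated chains, went from 1645.3 and 1804.5 to 7831.3 and 7385.7 (2.14 ± 0.067, adjusted p = 3.59e-08). Its relative Scd1 had 10215.2 and 10047.0 against 10815.7 and 9558.8 on the probe set that stands for it (0.01 ± 0.055, adjusted p = 0.938), but this differed by probe set, as given below. With arrays shifted to 1 median all 9 fatty acid genes passed as higher, Acly with 0.32 (adjusted p = 0.000930), Elovl5 with 0.21 (0.00148) and Scd1 with 0.14, just under the threshold.

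Among the regulators, Srebf1 passed and Srebf2 did not, and the difference between their changes was not itself tested. Srebf1 had 982.2 and 612.3 in the GFP-negative and 1896.7 and 2010.8 in the GFP-positive spleen arrays (1.33 ± 0.18, limma adjusted p = 0.000179). Srebf2 had 3309.1 and 3538.7 against 3565.9 and 3520.7 (0.05 ± 0.049, adjusted p = 0.372). It passed on the deposited scale, with 0.28, with arrays shifted to 1 median, with 0.43, with the mean of its probe sets, with 0.32, and without the second spleen GFP-negative array, with 0.10. Insig1, which retains SREBPs and is itself their target, had 6647.3 and 6602.2 against 6708.6 and 6321.1 (-0.02 ± 0.041, adjusted p = 0.599), and its sign turned to 0.25 with arrays shifted to 1 median. Stard4, a carrier of cholesterol between membranes, went from 1139.8 and 1135.0 to 2943.0 and 2994.9 (1.38 ± 0.053, adjusted p = 1.00e-07).

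**Figure D3:**
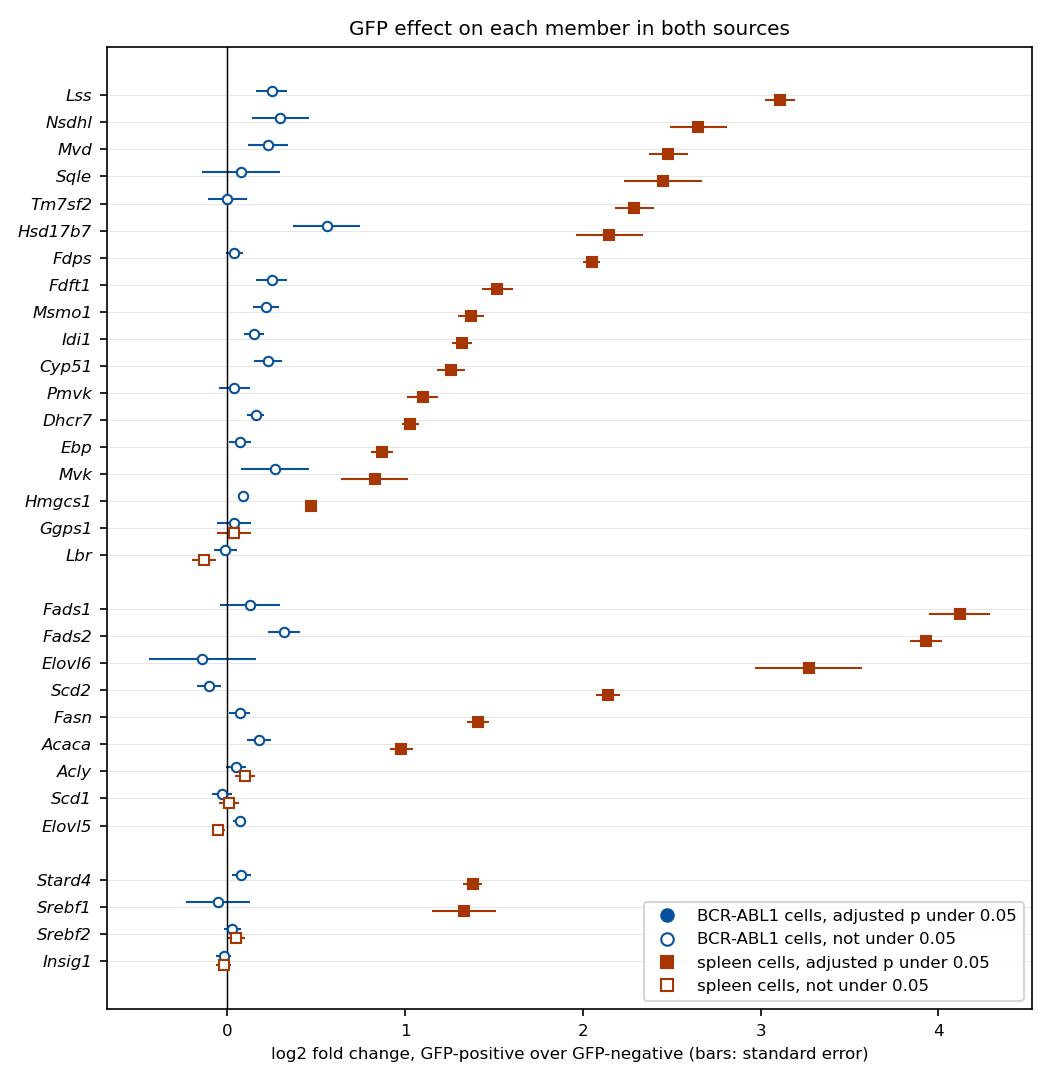
Log2 fold change of GFP-positive over GFP-negative arrays for the 31 genes, circles for BCR-ABL1 and squares for spleen cells, filled where the limma adjusted p is under 0.05, with bars for the standard error. In spleen cells 24 of 31 symbols are filled, from 0.47 for Hmgcs1 to 4.12 for Fads1, and in BCR-ABL1 cells none is filled and the values run from -0.14 to 0.56.

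Several members were measured by more than 1 probe set, and these did not always agree in size. In spleen cells 11 of the 20 members with several tested probe sets had probe sets whose changes differed by more than 1 on the log2 scale. The widest case in a gene that did not pass was Scd1, whose second probe set had 156.8 and 139.0 in the GFP-negative and 2438.0 and 1731.7 in the GFP-positive arrays, a change of 3.80 (limma adjusted p = 3.37e-07 over all tested probe sets) against 0.01 for the brightest. Other probe sets of Acly (0.83 and 0.22), of Srebf2 (0.59) and of Ggps1 (0.36, adjusted p = 0.0264) also passed where the brightest did not. The brightest probe set gave the smallest change in Scd2 (2.14, against 4.02 and 4.73), Stard4 (1.38, against 1.96 and 4.76) and Cyp51 (1.26, against 2.23 and 2.95), while in Lss it lay between the other two (3.11, against 1.91 and 3.96). In the spleen comparison only Elovl6 and Msmo1 had probe sets called in opposite directions. A dim probe set of Elovl6, with signals of 45.6 to 132.1 over the 8 arrays, changed by -0.93, and one of Msmo1 had 1479.8 and 1388.4 against 586.3 and 671.3, a change of -1.19 (adjusted p = 0.000184). Which transcript each probe set reads was not determined here.

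**Figure D4:**
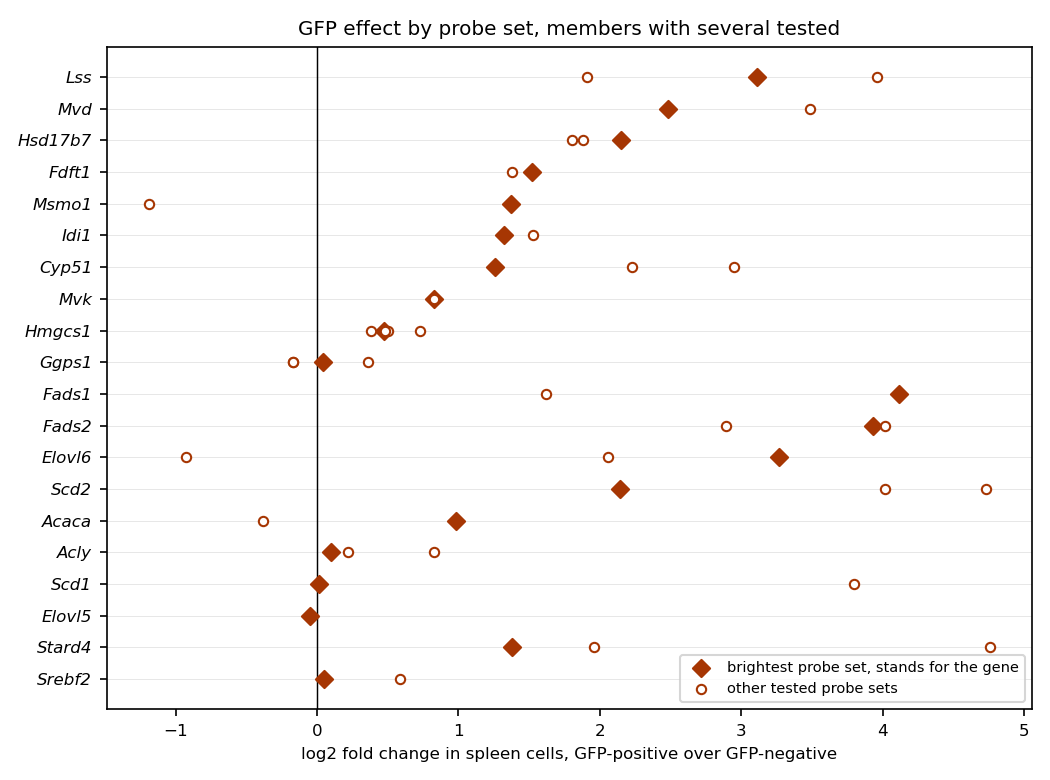
Log2 fold change of GFP-positive over GFP-negative spleen arrays for every tested probe set of the 20 members with several, diamonds for the brightest probe set, which stands for the gene, and open circles for the others. Probe sets of Scd1 spread from 0.01 to 3.80, and those of Msmo1 and Elovl6 lie on both sides of 0.

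In BCR-ABL1 cells no member passed the test between GFP-positive and GFP-negative arrays, where 3.07% of all genes tested were higher and 2.30% lower at an adjusted p under 0.05. The median log2 change was 0.15 over the sterol branch, 0.07 over the fatty acid branch and 0.01 over the regulators, against 0.00 over all genes tested. In the sterol branch 17 of 18 estimates were above 0, from -0.01 for Lbr to 0.56 for Hsd17b7. Both GFP-positive arrays lay above both GFP-negative arrays in 14 of the 18 sterol genes (77.8%) and the reverse was seen in none, while 27.4% of all genes tested had both GFP-positive arrays above. In the fatty acid branch that was so for 5 of 9 (55.6%), with 1 gene the other way. Among the regulators it was so for 2 of 4 (50.0%), also with 1 the other way. The share of all genes with both GFP-positive arrays below was not counted. The unadjusted limma p was under 0.05, in the higher direction, for 8 of 18 sterol and 2 of 9 fatty acid genes (10 of 31 members), against 8.90% of all genes tested. The sterol genes share their pathway and these 4 arrays, so the counts describe the list and are no test of it. The 7 genes of dividing cells did not differ by the test in these cells, with a median change of -0.04. Of the cell type markers 3 passed. Cd22, a B cell marker, was lower in the GFP-positive arrays (-1.77 ± 0.092, limma adjusted p = 4.39e-05). Rag1, of pre-B cells (1006.8 and 939.0 against 2849.4 and 2646.1, 0.00391), and Klrd1, of NK cells (0.78 ± 0.14, 0.0165), were higher. The T and NK cell markers summed to 4721 to 4755 in the GFP-negative and 5779 to 5815 in the GFP-positive arrays, and the 12 myeloid markers summed to 857 to 961 and 1045 to 1109. Their part in the small differences of the sterol genes was not tested.

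The values behind these small differences were close together. Hsd17b7 had 856.9 and 789.7 in the GFP-negative and 1254.3 and 1177.5 in the GFP-positive BCR-ABL1 arrays, the largest change among the members (0.56 ± 0.19, limma adjusted p = 0.169). Fads2 had 1981.5 and 2031.6 against 2476.8 and 2523.2 (0.32 ± 0.089, adjusted p = 0.0987). Lss had 626.6 and 635.7 against 754.3 and 745.4 (0.25 ± 0.085, adjusted p = 0.180). Fdft1, at 1330.6 and 1450.4 against 1627.6 and 1668.9, and Dhcr7, at 3075.6 and 3158.2 against 3563.0 and 3401.4, also had groups that did not overlap (0.25 ± 0.086 and 0.16 ± 0.048, adjusted p = 0.195 and 0.125). Fads2 and Hsd17b7 passed when either spleen GFP-negative array was left out of the fit (adjusted p from 0.0206 to 0.0232) or when only the 4 BCR-ABL1 arrays were fitted (0.0359 and 0.0491). The fatty acid gene with both GFP-positive arrays below both GFP-negative arrays was Elovl6, with 4407.1 and 4337.7 against 3871.0 and 4044.6 (-0.14 ± 0.30, adjusted p = 0.967).

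The GFP effect itself differed between the sources. In the test of the difference between the effects, 15 of 18 sterol genes, 6 of 9 fatty acid genes and 2 of 4 regulators had a smaller effect in BCR-ABL1 than in spleen cells, and no member had a larger one. Over all genes tested 41.0% were lower and 28.0% higher in this test, and the share of higher genes among the calls was 40.6%, against 30.6% on the deposited scale and 24.9% with arrays shifted to 1 median. The largest differences were those of Fads1 (-3.99 ± 0.24), Fads2 (-3.61 ± 0.13), Elovl6 (-3.42 ± 0.43) and Lss (-2.86 ± 0.12), with limma adjusted p of 0.000156 or lower. Mvk, which passed in spleen cells, missed the threshold in the test of the difference (-0.57 ± 0.27, adjusted p = 0.0928). It passed without the second spleen GFP-negative array (-0.89, 0.00307), on the deposited scale (-1.11, 0.00231), with arrays shifted to 1 median (-1.26, 0.000819) and with the replicate number as a block (0.0260). With the mean of probe sets Acaca no longer passed (-0.10, adjusted p = 0.530) and Msmo1 turned sign (0.12, 0.361). Another probe set of Msmo1, not the brightest, passed with the larger effect in BCR-ABL1 cells (1.40, limma adjusted p = 0.000765). The spleen effect enters every one of these differences, with the marker values given above for its GFP-negative arrays.

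The GFP-positive groups of both sources can be set side by side without the spleen GFP-negative arrays, although they remain in the fit for the estimate of spread. BCR-ABL1, tissue and stimulation change together between these groups and cannot be told apart. Of the 4 pre-B cell markers 3 were higher and 1 lower in BCR-ABL1 cells, with a median of 6.34. Sterol genes were mostly lower in BCR-ABL1 than in spleen cells between these GFP-positive groups: 14 of 18 were lower, 1 (Lbr) was higher and 3 did not pass. Their median was -0.65 against -0.05 over all genes tested. Of all genes 25.5% were lower and 24.8% higher. By the brightest probe sets the fatty acid branch had no such lean, with 2 genes higher, 2 lower and 5 not passing (median -0.09). Of the regulators, 2 of 4 were lower. Other probe sets read Scd1 (-1.88), Scd2 (-1.27) and Fads2 (-0.56) as lower, with limma adjusted p of 0.00744 or lower. Others again read Elovl6 (2.10 and 0.86), Fads1 (0.62) and Elovl5 (0.30) as higher, with limma adjusted p of 0.0398 or lower. The 7 genes of dividing cells had similar sums in both groups, 32914 to 33612 in BCR-ABL1 and 32898 to 33738 in spleen arrays, with 1 higher, 1 lower and a median of -0.18. For Hsd17b7 and Stard4 the brightest probe sets did not pass (0.37 and 0.12), but another probe set of each was lower in BCR-ABL1 cells. These changed by -0.65 (limma adjusted p = 0.00484) and -0.66 (0.0149), and their remaining tested probe sets did not pass (0.28 and -0.08). Members differed between the replicates by a median of 0.13 on the log2 scale in the spleen GFP-negative arrays, against 0.05 to 0.06 in the other groups. Without either of these arrays in the fit, 6 more members passed: Mvk and Srebf1 as lower (adjusted p from 0.00702 to 0.0144), Hsd17b7, Fads1 and Stard4 as higher (0.00191 to 0.0460) and Fasn as lower (0.0318 and 0.0320).

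In the sterol branch Lss, Mvd, Tm7sf2 and Pmvk differed most. Lss had 754.3 and 745.4 in the BCR-ABL1 and 2091.2 and 2261.8 in the spleen GFP-positive arrays, 2.90-fold lower in BCR-ABL1 cells (-1.54 ± 0.085, limma adjusted p = 1.50e-06). Mvd had 843.1 and 919.6 against 2351.4 and 2559.9 (-1.48 ± 0.11, adjusted p = 1.09e-05). Tm7sf2 had 279.7 and 292.9 against 635.6 and 653.8 (-1.17 ± 0.11, adjusted p = 4.19e-05) and Pmvk 1417.8 and 1506.2 against 3182.7 and 3271.2 (-1.14 ± 0.088, adjusted p = 1.16e-05). In each of these 4 genes the BCR-ABL1 arrays lay below the spleen arrays by more than the replicates of either group differed.

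Most of the remaining sterol genes differed by less than 1 on the log2 scale. Nsdhl (-0.89), Fdps (-0.81), Cyp51 (-0.75), Fdft1 (-0.71), Msmo1 (-0.66), Idi1 (-0.55) and Hmgcs1 (-0.28) were lower in BCR-ABL1 cells with limma adjusted p of 0.00204 or lower. The calls of Sqle (-0.64 ± 0.22, adjusted p = 0.0368), Ggps1 (-0.40 ± 0.095, 0.00791) and Dhcr7 (-0.18 ± 0.048, 0.0150) were each lost under some settings. Leaving out any 1 of the 4 GFP-positive arrays took Sqle to an adjusted p of 0.113 to 0.149, leaving out either BCR-ABL1 GFP-negative array took it to 0.0668 and 0.0669, and leaving out the first BCR-ABL1 or the second spleen GFP-positive array took Ggps1 to 0.0639 and 0.0632. Sqle also missed the threshold with all arrays kept on the deposited scale (0.0505), with a floor of 64 (0.0716), with no filter (0.160) and without the trend (0.0693), and Ggps1 fell to -0.10 (0.521) with the mean of probe sets. Dhcr7 stood at 0.119 without the second BCR-ABL1 array, 0.0526 without the first spleen array, 0.0641 without the second and 0.0504 without the trend. Hsd17b7, at 1254.3 and 1177.5 against 908.0 and 973.4, was the sterol gene with the highest estimate (0.37 ± 0.19, adjusted p = 0.138), and Lbr, at 6974.8 and 6728.7 against 5730.3 and 4988.9, was the one that was higher (0.36 ± 0.066, adjusted p = 0.00210).

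In the fatty acid branch Elovl6 went the other way from the sterol genes. It had 3871.0 and 4044.6 in the BCR-ABL1 and 751.9 and 692.6 in the spleen GFP-positive arrays, 5.48-fold higher in BCR-ABL1 cells (2.45 ± 0.30, limma adjusted p = 0.000218). Elovl5 was higher too, at 8903.7 and 8771.4 against 7235.7 and 7003.1 (0.31 ± 0.036, adjusted p = 0.000135). Scd1 was lower (-0.33 ± 0.055, adjusted p = 0.00109), and so was Scd2 (-0.28 ± 0.067, 0.00871), which missed the threshold without the second BCR-ABL1 array (0.0715) or the first spleen array (0.0682). For the enzymes that build palmitate the differences were small and did not pass, with Acaca at -0.11 ± 0.066 (0.208), Fasn at -0.15 ± 0.060 (0.0735) and Acly at 0.06 ± 0.054 (0.362). Fads1 (0.45 ± 0.17, 0.0593) and Fads2 (-0.09 ± 0.089, 0.457) did not pass either. Some of these calls depended on the setting with all arrays kept. Fads1 passed as higher on the deposited scale (limma adjusted p = 0.0330), with a floor of 64 (0.0439), a pseudocount of 32 (0.0176), the 60th percentile filter (0.0483) and the mean of probe sets (0.0322). Fads2 passed as lower with the mean of probe sets (0.0304), and Fasn with a floor of 64 (0.0409), no filter (0.0307) and the replicate block (0.0415). Of the regulators, Insig1 was lower, at 4734.5 and 4604.4 against 6708.6 and 6321.1 (-0.48 ± 0.041, adjusted p = 2.22e-05), and Srebf2 was lower by a small margin (-0.17 ± 0.049, 0.0204) that was lost when any 1 of the 4 GFP-positive arrays was left out, with adjusted p of 0.0618 to 0.102.

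**Figure D5:**
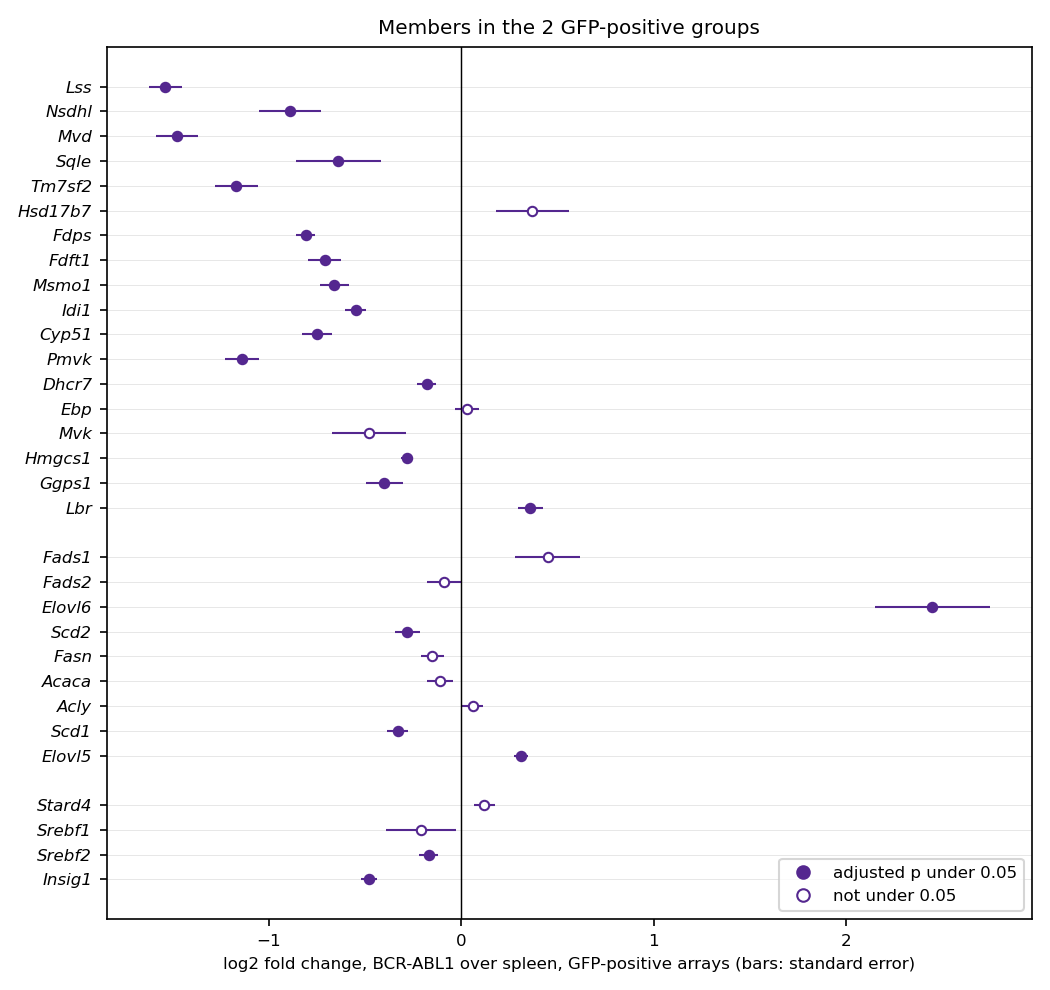
Log2 fold change of BCR-ABL1 over spleen cells among the GFP-positive arrays for the 31 genes, filled where the limma adjusted p is under 0.05, with bars for the standard error. Of the 18 sterol genes at the top 14 filled symbols lie left of 0 and 1, Lbr, right of it, while Elovl6 stands at 2.45.

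The GFP-negative groups differed in the opposite direction, with the spleen arrays at their lowest. In BCR-ABL1 cells 15 of 18 sterol genes were higher and 1 (Ggps1) lower, 7 of 9 fatty acid genes were higher and 1 (Scd1) lower, and the regulators split, with Stard4 and Srebf1 higher and Insig1 and Srebf2 lower. Of all genes tested 45.7% were higher and 32.8% lower. The share of higher genes among the calls was 58.2%, against 68.5% on the deposited scale and 72.8% with arrays shifted to 1 median. The member counts rest on the brightest probe sets, and 4 members had another probe set called in the opposite direction. These were Scd1 (1.80 against -0.30 for the brightest), Acaca (-0.74 against 0.69), Hmgcs1 (-0.76 against 0.11) and Msmo1 (-1.84 against 0.50). The limma adjusted p of the opposite probe sets was 0.00666 or lower. Elovl6 had 4407.1 and 4337.7 in the BCR-ABL1 and 112.4 and 49.6 in the spleen GFP-negative arrays, a 58.6-fold difference (5.87 ± 0.30, limma adjusted p = 4.12e-07), the widest of any member in any comparison. Fads1 followed with 4.44 ± 0.17 and Fads2 with 3.52 ± 0.089, and among sterol genes Hsd17b7 was widest with 1.96 ± 0.19. The calls of Ggps1 (-0.40) and Srebf2 (-0.15) turned sign on the deposited scale, to 0.02 and 0.07, and with arrays shifted to 1 median, to 0.13 and 0.18. The calls of Lbr (0.24), Hmgcs1 (0.11), Cyp51 (0.28) and Srebf2 were each lost without some single GFP-negative array, with adjusted p from 0.0694 to 0.0849. For Lbr these were the first BCR-ABL1 or either spleen array, for Hmgcs1 the second of either source, for Cyp51 the second BCR-ABL1 or first spleen array, and for Srebf2 either BCR-ABL1 array. In this comparison all 10 myeloid and all 9 T and NK markers tested were lower in BCR-ABL1 cells (medians -6.78 and -4.33). Of these, Camp, Ngp, Csf1r and Cd3g passed the filter through the spleen GFP-negative arrays alone. All 7 genes of dividing cells were higher (median 3.69). The part of these markers in the values of the lipid genes was not tested.

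Other genes around the pathway, 70 listed by role of which 57 were tested, moved in both directions in spleen cells: 25 were higher and 23 lower, with a median of 0.11, where 45.7% of all genes tested were higher and 31.4% lower. These counts and those of the single roles, each with 13 genes or fewer, are given as descriptions. Genes that control SREBPs had 7 higher and 5 lower of 13, among them Tmem97, a sterol-binding membrane protein that SREBP induces (2.72 ± 0.14, limma adjusted p = 5.29e-07), and Mbtps2, the protease that makes the second cut in SREBPs (2.15 ± 0.34, 0.000399). Genes that supply acetyl-CoA, activate fatty acids or assemble lipids had 8 higher and 3 lower of 13, with Slc25a1, the mitochondrial citrate carrier, at 2.59 ± 0.11 and Acsl3, an acyl-CoA synthetase, at 2.46 ± 0.12, and with Thrsp (-2.22 ± 0.17) and Dgat1, which makes triglyceride (-2.00 ± 0.11), lower. Elongation and desaturation had 5 higher and 2 lower of 11, including Oxsm of mitochondrial fatty acid synthesis (1.96 ± 0.22). Prenylation, dolichol and ubiquinone had 4 higher and 5 lower of 10, with Fntb and Rabggtb, subunits of prenyltransferases, higher (1.64 ± 0.10 and 1.54 ± 0.061).

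Of the genes of sterol export, storage and sensing, 8 were lower and 1 higher of 10, with a median of -0.50, where 31.4% of all genes tested were lower. Abca1, the pump that exports cholesterol to apolipoproteins and a target of the sterol-sensing LXR receptors, had 3327.0 and 3217.7 in the GFP-negative and 69.9 and 65.1 in the GFP-positive spleen arrays (-5.60 ± 0.12, limma adjusted p = 7.04e-09). It was at the floor of 32 in all 4 BCR-ABL1 arrays. Apoe (-3.63 ± 0.13) and Mylip, a ubiquitin ligase induced by LXR (-1.66 ± 0.13), were lower as well. Macrophages are known to express Abca1 and Apoe strongly, and the myeloid markers fell by a median of 7.28 between the same groups. Their part in these changes was not tested. In BCR-ABL1 cells 1 of the 57 genes passed between GFP-positive and GFP-negative arrays, where 3.07% of all genes tested were higher and 2.30% lower. It was Elovl4, an elongase of very long chains, which fell from 120.3 and 147.0 to 53.5 and 46.6 (-1.41 ± 0.24, limma adjusted p = 0.0134). Its signal was dim, with a GFP-positive mean of 50.0 under the filter signal of 51.0.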

How the data were processed

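The authors deposited 1 table of signal intensity values on a linear scale, 45101 probe sets by 8 arrays. GCOS 1.3 is named in the submitters' processing notes; how probes were summarised and arrays scaled is not stated there. After leaving out 64 control probe sets, intensities were quantile normalized, set to a floor of 32 and taken to log2. Probe sets under the 40th percentile of mean log2 signal were filtered out. The brightest tested probe set with 1 symbol in the platform annotation stood for a gene, which gave 12223 genes. The model was fitted in limma 3.58.1 (R 4.3.3; lmFit, eBayes with trend) on all 8 arrays, as 4 group means (4 residual degrees of freedom), and p-values were adjusted over all genes (Benjamini-Hochberg). Calls use an adjusted p under 0.05. The scripts were tested on simulated data. Array number limits the precision. The members, gene lists and tests were chosen with earlier results of these data known. Every member could be named, and of the other pathway genes the 12 called ones with the largest change in each GFP effect. Signals of different probe sets are not compared as levels. The reporter's own gene is not reported here. Replicate numbers were checked for pairing. Alternatives covered scaling, floor, filter, probe set rule, empirical Bayes setting, block and arrays left out.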

Additional observations from a re-analysis of the deposited data

Results flagged for a closer look

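The GFP effect differed between BCR-ABL1 and spleen cells, by the limma interaction test at an adjusted p under 0.05, for 23 members, each with the smaller effect in BCR-ABL1 cells. Over all genes tested 41.0% were lower and 28.0% higher in this test. The spleen GFP-negative arrays, with their myeloid and T and NK cell marker signals, enter every difference, and their part was not tested. The differences of the effects (BCR-ABL1 minus spleen, log2) were -2.86 for Lss, -2.37 for Sqle, -2.35 for Nsdhl, -2.29 for Tm7sf2, -2.25 for Mvd, -2.02 for Fdps and -1.59 for Hsd17b7. Smaller differences in the sterol branch were -1.27 for Fdft1, -1.17 for Idi1, -1.16 for Msmo1, -1.06 for Pmvk, -1.03 for Cyp51, -0.87 for Dhcr7, -0.79 for Ebp and -0.38 for Hmgcs1. In the fatty acid branch they were -3.99 for Fads1, -3.61 for Fads2, -3.42 for Elovl6, -2.24 for Scd2, -1.34 for Fasn and -0.80 for Acaca. Srebf1 had -1.38 and Stard4 -1.30. Groups of 2 arrays are too small for a check of single outlying arrays.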

How the results depend on the processing

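Of the member values recomputed under 21 settings (20 for the difference of the effects), 635 of 651 in spleen cells, 645 of 651 in BCR-ABL1 cells, 603 of 620 for the difference, 595 of 651 for the GFP-positive and 615 of 651 for the GFP-negative groups kept their direction and their side of the threshold. Of the calls in spleen cells, 15 of 16 sterol, 6 of 6 fatty acid and 2 of 2 regulator calls held in every setting; it was 14 of 15, 5 of 6 and 2 of 2 in the difference, 12 of 15, 3 of 4 and 1 of 2 between the GFP-positive and 11 of 16, 6 of 8 and 3 of 4 between the GFP-negative groups. With only the 4 arrays of a comparison, 1 sterol and 1 fatty acid gene passed in BCR-ABL1 cells and 7 fatty acid genes passed between the GFP-positive groups. With arrays shifted to 1 median, 9 fatty acid genes and 4 regulators passed in spleen cells and 4 regulators in the difference, and without the trend in empirical Bayes 1 regulator passed between the GFP-positive groups. The sign turned in spleen cells with arrays shifted to 1 median for Elovl5 (0.21) and Insig1 (0.25), and in the difference for Ggps1 (-0.55), Insig1 (-0.25) and, with the mean of probe sets, Msmo1 (0.12). Between the GFP-negative groups it turned on the deposited scale for Ggps1 (0.02), Pmvk (0.32) and Srebf2 (0.07), with 1 median for the same genes (0.13, 0.43 and 0.18) and with the mean of probe sets for Acaca (-0.02), Hmgcs1 (-0.15), Msmo1 (-0.67) and Scd1 (0.75). The causes were not tested.

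Leaving out each array in turn gave 0 to 1 sterol and 0 to 1 fatty acid genes called in BCR-ABL1 cells, and 210 to 839 genes in all against 656. Without each BCR-ABL1 array that count was 235, 242, 223 and 210. In spleen cells it gave 16 to 17 sterol, 6 to 7 fatty acid and 2 to 3 regulator genes, and between the GFP-positive groups 12 to 17, 3 to 6 and 1 to 4. With the replicate number as a block, 715 genes passed in BCR-ABL1 and 9766 in spleen cells, against 656 and 9426, 8835 in the difference, 6730 between the GFP-positive and 9952 between the GFP-negative groups. Deviations of same-numbered arrays correlated at 0.13 in BCR-ABL1 and 0.27 in spleen cells, over 2 pairs each; the labels do not say that a number marks a shared animal or day, and 2 pairs do not settle it. Signal over background limits the dim probe sets: 32.7% of values were at the floor, none of them of the probe sets that stand for the members.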
